A study of Homo sapiens with 6 samples.

Results

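The 10 genes described here encode the NF-kB transcription factor family and its direct brakes: the subunit genes NFKB1, NFKB2, RELA, RELB and REL, the inhibitor genes NFKBIA, NFKBIB, NFKBIE and NFKBIZ, and TNFAIP3. They were taken by name from the count table, by a rule that sets no threshold on a measured value but that was made with earlier results of these data known, and all 10 symbols had a row among 20263 genes. The cells were HCCLM3, an established human hepatocellular carcinoma line known for its spread in mice, kept in serum-containing medium. One group of 3 libraries came from cells given CC-885 for 24 h, and the other group of 3 from cells given the solvent DMSO. CC-885 binds cereblon, the substrate receptor of a cullin ubiquitin ligase, and redirects the ligase to proteins such as the translation termination factor GSPT1. The study used it to ask how the compound acts on GOLM1 and on liver cancer growth. The sources used here give no dose of CC-885, and no label states whether replicates were grown as separate cultures, so p-values speak only of the variation among these 6 libraries, and that variation may be technical.

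NF-kB is a pair of subunits that share a DNA-binding domain. RELA, RELB and REL carry an activation domain, while NFKB1 and NFKB2 are made as long precursors that are cut to DNA-binding partners and that, uncut, hold other subunits back. In resting cells IkB proteins keep the pairs in the cytoplasm, and kinases of the IKK complex mark IkB for destruction when a cytokine receptor or a stress signal arrives. In the classical branch RELA pairs with the NFKB1 product, and in the alternative branch the kinase NIK leads to cutting of NFKB2, whose product pairs with RELB. Several family genes are themselves targets of NF-kB, among them NFKBIA and TNFAIP3, which act as negative feedback.

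The promoters of members with a large and a small response are shown first. They were taken from RefSeq on GRCh38.p14 as 250 bases before and 50 bases after a transcription start, on the strand of the gene. The pair with the large response is TNFAIP3 (chr6:137867009-137867308, plus strand) and the second of 3 starts of NFKB2 (chr10:102394328-102394627, plus strand). The pair with the smallest response is NFKBIA (chr14:35404700-35404999, minus strand) and the second of 2 starts of RELA (chr11:65662867-65663166, minus strand). Capitals mark every match to the kappa B consensus, the 10-base motif that NF-kB binds, on either strand, with matches that overlap merged into 1 run.
TNFAIP3: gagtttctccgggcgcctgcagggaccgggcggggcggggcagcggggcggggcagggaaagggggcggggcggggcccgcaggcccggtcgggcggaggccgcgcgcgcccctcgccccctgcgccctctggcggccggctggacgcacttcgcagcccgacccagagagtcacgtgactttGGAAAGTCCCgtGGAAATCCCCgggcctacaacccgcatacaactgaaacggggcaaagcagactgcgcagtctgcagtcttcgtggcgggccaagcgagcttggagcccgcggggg
NFKB2: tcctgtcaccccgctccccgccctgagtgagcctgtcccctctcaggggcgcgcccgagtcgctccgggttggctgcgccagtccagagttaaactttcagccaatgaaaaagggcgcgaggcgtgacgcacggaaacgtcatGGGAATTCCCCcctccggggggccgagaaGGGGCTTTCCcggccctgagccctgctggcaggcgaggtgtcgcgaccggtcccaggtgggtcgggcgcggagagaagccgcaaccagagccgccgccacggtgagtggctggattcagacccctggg
NFKBIA: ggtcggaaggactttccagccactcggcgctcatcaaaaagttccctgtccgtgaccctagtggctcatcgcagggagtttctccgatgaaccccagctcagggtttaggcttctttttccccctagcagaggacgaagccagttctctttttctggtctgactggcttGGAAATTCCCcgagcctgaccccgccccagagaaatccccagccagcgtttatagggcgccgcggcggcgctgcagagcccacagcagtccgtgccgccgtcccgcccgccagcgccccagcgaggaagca
RELA: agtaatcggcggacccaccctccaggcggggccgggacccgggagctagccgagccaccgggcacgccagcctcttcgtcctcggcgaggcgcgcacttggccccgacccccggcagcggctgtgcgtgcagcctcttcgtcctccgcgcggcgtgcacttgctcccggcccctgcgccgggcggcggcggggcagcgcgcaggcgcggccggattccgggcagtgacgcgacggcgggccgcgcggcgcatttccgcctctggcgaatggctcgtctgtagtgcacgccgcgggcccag
TNFAIP3 held matches at bases -67 and -55 counted from the start, both on the minus strand, and NFKBIA 1 match at base -81. NFKB2 held overlapping matches at bases -107 and -106, of which the first reads as a match on both strands, and another at -78. This window was shown because it held the most matches of the 3 windows of NFKB2, of which the first held none. Both RELA windows held none, which says only that these letters are not in these windows. RefSeq windows were found for 8 of the 10 genes, 14 windows in all, and 9 of the 14 held the consensus, against 11.3% of 35116 windows over all genes. At least 1 window of NFKB1, NFKB2, REL, NFKBIA, NFKBIB, NFKBIZ and TNFAIP3 held the consensus. RELB and NFKBIE are named here without a sequence. A match describes the letters and is not a measured binding site, and its part in the size of a response was not tested.

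Every member was higher with CC-885. All 10 passed the edgeR quasi-likelihood test as higher at an adjusted p below 0.05, where 25.8% of the 13444 genes tested were called higher, and 8 of the 10 were higher by at least 2-fold, which 8.23% of tested genes were. The largest increases were those of RELB, TNFAIP3, NFKB2 and NFKBIE, each over 4-fold, a size that 1.61% of tested genes passed, and the smallest were those of RELA and NFKBIA. None was called lower in edgeR: 0 of 10 at an adjusted p below 0.05, where 26.8% of tested genes were called lower. At an unadjusted p below 0.05 it was also 0 of 10. The DESeq2 Wald test and limma-voom called 0 of the 10 lower, beside 3466 and 3578 of the 13444 genes tested. The median log2 fold change of the 10 was 1.94, beside -0.04 over all tested genes, and NFKBIA, the member with the smallest change, lay above 86.9% of tested genes. In each of the 10, all CC-885 libraries lay above all DMSO libraries, as they did in 29.9% of tested genes. Values are CPM, a gene's counts scaled to a library total that TMM corrects for a few very abundant genes, so each is a share of its library and not an amount per cell. In such bulk RNA a change in the number of cells that make an mRNA and a change in the mRNA per cell cannot be told apart.

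**Figure D1:**
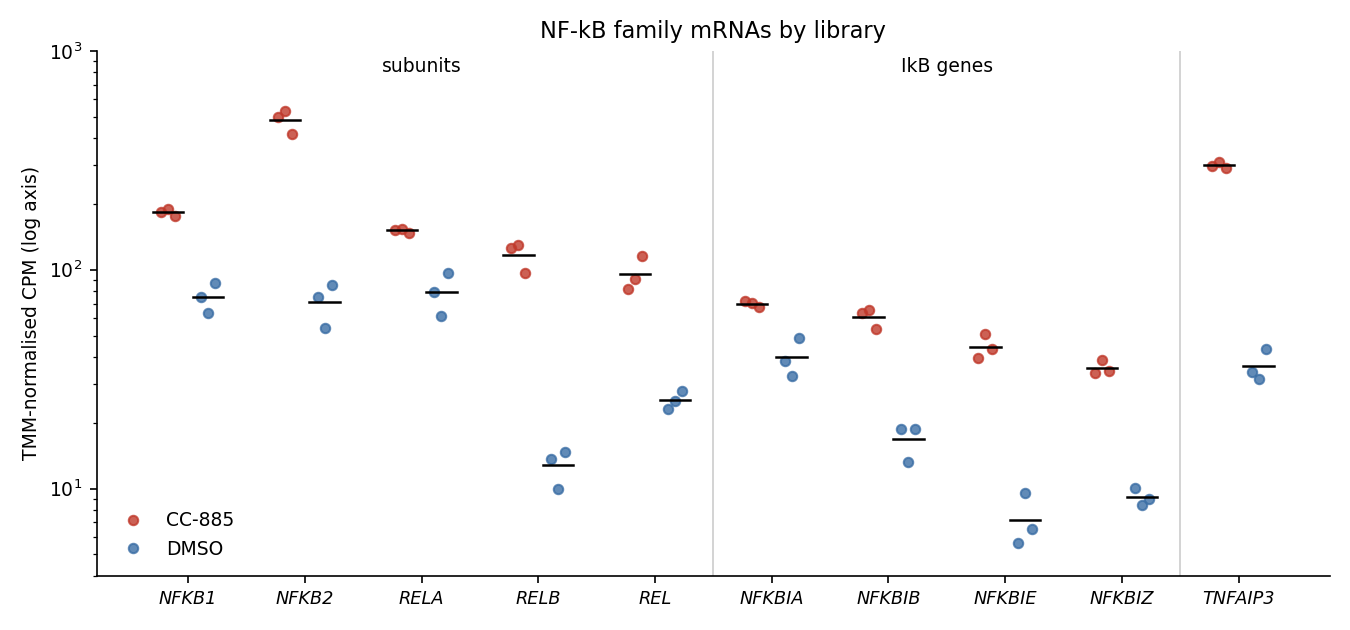
TMM-normalised CPM of the 10 genes on a log axis, 1 point per library with CC-885 (red) left of DMSO (blue) and the group mean as a black line. The 3 CC-885 points of each gene lie above its 3 DMSO points, with the widest gaps for RELB, TNFAIP3 and NFKB2.

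NFKB2 (ENSG00000077150), the precursor of the alternative branch, showed the third largest change of the family. It stood at 495.9, 528.6 and 416.3 CPM in CC-885 replicates 1 to 3, against 74.9, 53.9 and 85.4 CPM in DMSO replicates 1 to 3. The lowest CC-885 library was far above the highest DMSO library, and the difference came to 2.75 on the log2 scale (SE 0.19, adjusted p = 1.43e-06 by edgeR). RELB (ENSG00000104856), the activating partner of the NFKB2 product, stood at 125.5, 129.5 and 96.3 CPM under CC-885, against 13.6, 9.97 and 14.7 CPM under DMSO. It had the largest change of the family, 9.17-fold (log2 fold change 3.20, SE 0.18, adjusted p = 4.46e-07), from a low level in DMSO cells.

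The subunits of the classical branch rose less. NFKB1 (ENSG00000109320) measured 184.1, 189.3 and 175.0 CPM in the CC-885 libraries, against 75.3, 63.1 and 87.1 CPM in the DMSO libraries (log2 fold change 1.28, SE 0.14, adjusted p = 3.35e-05). RELA (ENSG00000173039), the main activating subunit in most cells, measured 152.2, 153.9 and 147.5 CPM under CC-885, against 79.2, 61.4 and 97.0 CPM under DMSO (0.93, SE 0.16, adjusted p = 0.000613). Its CC-885 libraries differed among themselves by 1.04-fold and its DMSO libraries by 1.58-fold, so most of the spread behind this test was among the controls. REL (ENSG00000162924), a subunit best known from lymphocytes, stood at 81.4, 90.5 and 115.5 CPM in CC-885 cells and at 23.0, 25.2 and 28.0 CPM in DMSO cells (1.91, SE 0.16, adjusted p = 4.23e-06). REL was highest in CC-885 replicate 3, the library in which NFKB2, RELB, NFKB1 and RELA were at their lowest among the CC-885 libraries.

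The inhibitor genes spanned a wide range of change. NFKBIA (ENSG00000100906), which encodes IkB alpha, the fast feedback inhibitor, stood at 71.9, 70.5 and 67.7 CPM with CC-885 against 38.2, 32.7 and 48.9 CPM with DMSO. The CC-885 values were close to each other and above every control, yet at 1.76-fold this was the smallest change of the 10 (log2 fold change 0.81, SE 0.15, adjusted p = 0.00106). NFKBIB (ENSG00000104825), encoding IkB beta, measured 63.5, 65.2 and 53.4 CPM in CC-885 libraries, against 18.8, 13.2 and 18.8 CPM in DMSO libraries (1.84, SE 0.16, adjusted p = 7.61e-06). NFKBIE (ENSG00000146232), encoding IkB epsilon, reached 39.3, 50.6 and 43.5 CPM under CC-885, against 5.61, 9.50 and 6.54 CPM under DMSO (2.62, SE 0.20, adjusted p = 3.55e-06). It had the largest standard error of the 10, with DMSO replicate 2 at 1.69 times the lowest control. NFKBIZ (ENSG00000144802) encodes a nuclear IkB protein that, unlike the others, helps NF-kB switch on a subset of genes, IL6 among them in mouse cells. It stood at 33.8, 38.6 and 34.5 CPM under CC-885, against 10.0, 8.41 and 8.96 CPM under DMSO (1.96, SE 0.14, adjusted p = 1.96e-06).

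TNFAIP3 (ENSG00000118503) encodes A20, a ubiquitin-editing enzyme that shuts off signalling upstream of the IKK complex. It measured 297.1, 310.3 and 292.3 CPM in the CC-885 libraries, against 34.0, 31.7 and 43.4 CPM in the DMSO libraries. The change was 8.26-fold (log2 fold change 3.05, SE 0.16), with the smallest adjusted p of the 10 (1.88e-07). By fold change it was the 70th of all tested genes from the top, RELB the 66th, NFKB2 the 97th and NFKBIE the 111th.

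**Figure D2:**
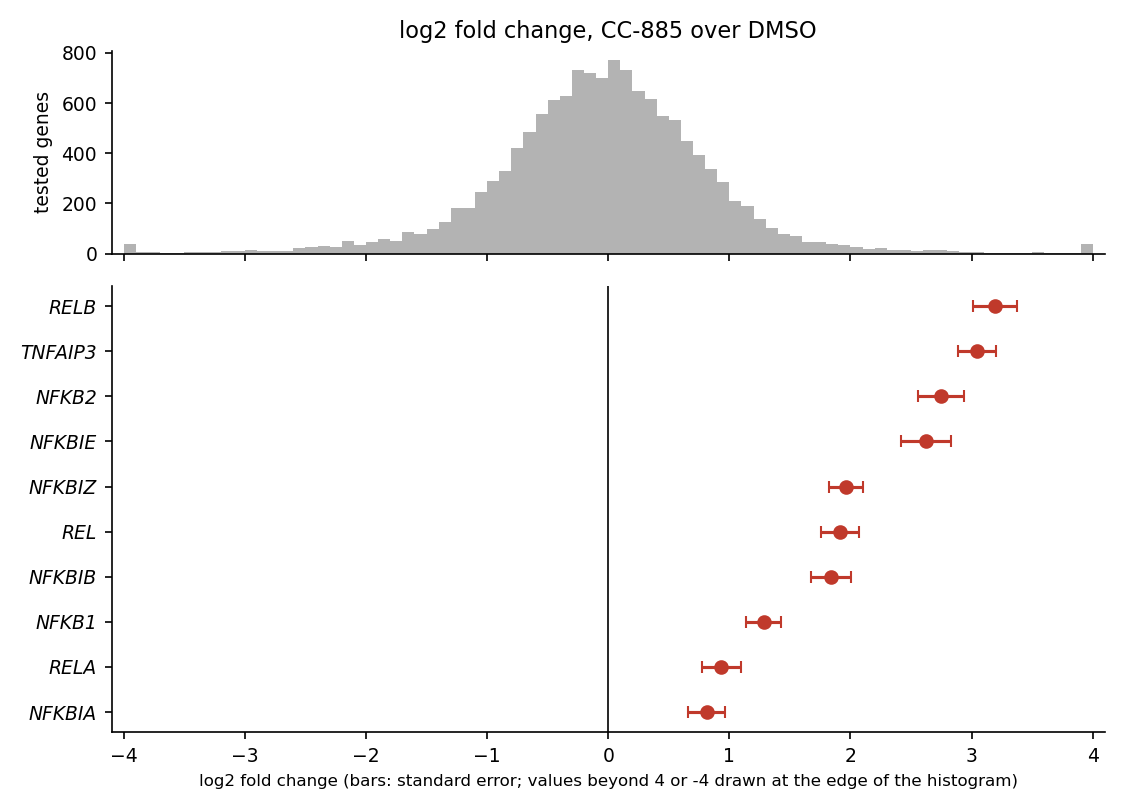
Log2 fold changes of CC-885 over DMSO: above, a histogram over all 13444 tested genes, and below, the 10 members with their standard errors. The members run from 0.81 (NFKBIA) to 3.20 (RELB), on the right of the bulk of tested genes.

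The libraries behind these values were close within a group. Total counts ran from 30432509 to 39809131, the lowest correlation of log2 CPM within a group was 0.977, the highest between groups 0.946, and the count of a member in a library was never below 213. Among the DMSO libraries, replicate 2 held the lowest value of 8 of the 10 genes and replicate 3 the highest value of 7. Among the CC-885 libraries replicate 2 held the highest value of 8 and replicate 3 the lowest of 7. Leaving out DMSO replicate 3 gave larger changes for the members with the smallest ones, 0.98 for NFKBIA and 1.10 for RELA, and leaving out DMSO replicate 2 gave 0.70 and 0.79, so these log2 values lean on which control is used while the calls did not change (the adjusted p of RELA and NFKBIA was at most 0.00509 over all alternatives). Means are given with their SD over n = 3 libraries a group. Of 16 hepatocyte and liver cancer markers 4 were tested, 0 were higher and 2 lower (26.8% of all tested genes were lower), and 8 had no count in any library, ALB, AFP, APOB and TTR among them, while KRT8 (889.6 ± 105.7 CPM with CC-885, 1251 ± 136 CPM with DMSO) and KRT18 (CC-885 657 ± 58.5 CPM, DMSO 758 ± 66.1 CPM) were abundant. The lower ones were KRT8 (edgeR adjusted p = 0.0236) and HNF4A, which was near the floor with CC-885 (0.213 ± 0.183 CPM, against 1.25 ± 0.184 CPM with DMSO) and was tested through its DMSO libraries. KRT8 missed the threshold without any 1 CC-885 library (0.0595 without replicate 1 or 2, 0.117 without replicate 3) or without DMSO replicate 1 (0.104). KRT8 and KRT18 overlap each other on opposite strands. Of 8 leukocyte markers 4 were tested and none was called, PTPRC, CD3E and LYZ had no count in any library, and their summed level was 3.95 to 6.22 CPM with CC-885 and 5.01 to 5.83 CPM with DMSO. Of 8 endothelial and fibroblast markers 5 were tested, beside 25.8% called higher and 26.8% lower over all tested genes. VWF, CDH5 and COL1A1 were called higher (COL1A1 at a log2 fold change of 0.58). DCN and PDGFRB were called lower (PDGFRB at -2.33), and LUM was at 0 in every library. The summed level of these markers was 154.6 to 188.4 CPM with CC-885 and 157.8 to 188.3 CPM with DMSO. Nearly all of that sum was COL1A1 (CC-885 154.9 ± 16.3 CPM, DMSO 103.8 ± 6.22 CPM) and PDGFRB (CC-885 14.1 ± 0.369 CPM, DMSO 70.9 ± 10.6 CPM). VWF, CDH5 and DCN were thus low. A low gene could enter the test through 1 group alone, so their fold changes are not given. The part of these genes in the family's values was not tested.

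Some counts are less certain than others because no source says that reads were counted by strand. NFKBIB has exons that overlap those of SIRT2 on the opposite strand in GENCODE 29, so their reads cannot be told apart without strand. SIRT2 moved the other way, at 16.7 ± 2.58 CPM under CC-885, against 30.8 ± 2.01 CPM under DMSO (log2 fold change -0.88, SE 0.15, edgeR adjusted p = 0.000544). TNFAIP3, RELA and REL overlap annotated non-coding genes that have no row under their names in the count table. NFKB1, NFKB2, RELB, NFKBIA, NFKBIE and NFKBIZ have no exon overlap with another annotated gene.

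To set the genes side by side, CPM were divided by the length of the longest annotated transcript, giving CPM per kb. With CC-885 the order of mean levels was NFKB2 (140.6 ± 16.9 CPM per kb), TNFAIP3 (63.3 ± 1.97), RELB (51.1 ± 7.90), RELA (47.5 ± 1.04), NFKBIA (44.9 ± 1.36), NFKB1 (44.7 ± 1.77), NFKBIB (27.6 ± 2.90), NFKBIE (17.2 ± 2.22), NFKBIZ (9.09 ± 0.658) and REL (8.51 ± 1.57), each the mean and SD of 3 libraries. The library ranges of RELB and RELA overlapped, as did those of NFKBIA and NFKB1 and those of NFKBIZ and REL. The range of RELB (42.0 to 56.5 CPM per kb) also overlapped those of NFKBIA and NFKB1. Genes whose ranges overlap are not ordered beyond their spread. With DMSO the order was NFKBIA (25.6 ± 5.30 CPM per kb), RELA (24.9 ± 5.58), NFKB2 (20.9 ± 4.69), NFKB1 (18.4 ± 2.93), NFKBIB (7.69 ± 1.46), TNFAIP3 (7.67 ± 1.31), RELB (5.57 ± 1.09), NFKBIE (2.80 ± 0.788), NFKBIZ (2.33 ± 0.212) and REL (2.26 ± 0.225). The ranges of the first 4 overlapped from neighbour to neighbour, and so did NFKBIB with TNFAIP3 and NFKBIE, NFKBIZ and REL in turn. In CC-885 cells NFKB2 and TNFAIP3 led without overlap, while in DMSO cells no gene led.

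The makeup of the subunit pool differed between the groups. Of the summed CPM per kb of the 5 subunits, NFKB2 took 48.4, 49.3 and 46.3% in the CC-885 libraries, against 29.9, 27.6 and 29.2% in the DMSO libraries. RELB took 17.4 ± 1.26% with CC-885 and 7.74 ± 0.337% with DMSO. RELA took 16.3 ± 1.15% (CC-885) and 34.4 ± 0.968% (DMSO), and NFKB1 15.4 ± 0.806% (CC-885) and 25.7 ± 1.18% (DMSO), although the level of both rose. REL took 2.96 ± 0.817% (CC-885) and 3.21 ± 0.622% (DMSO), with overlapping libraries. Within a library the count ratio of NFKB2 to NFKB1, which needs neither length nor scaling, was 2.69, 2.79 and 2.38 with CC-885 against 0.995, 0.855 and 0.981 with DMSO, and that of RELB to RELA was 0.825, 0.841 and 0.653 with CC-885 against 0.172, 0.162 and 0.152 with DMSO. Both alternative branch genes thus gained on their classical counterparts in each CC-885 library. These ratios were chosen after the values were seen and carry no test.

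Among the classical inhibitors the balance shifted as well. Of the summed CPM per kb of NFKBIA, NFKBIB and NFKBIE, NFKBIA took 50.1 ± 1.95% with CC-885 and 70.6 ± 2.91% with DMSO, and NFKBIE 19.2 ± 2.05% (CC-885) and 8.05 ± 3.44% (DMSO). The summed level of these 3 inhibitors was 90.2, 94.5 and 84.6 CPM per kb in the CC-885 libraries, against 35.2, 30.6 and 42.4 CPM per kb in the DMSO libraries, 2.49-fold higher in the means. The summed level of the 5 subunits was 300.0, 313.9 and 263.3 CPM per kb for CC-885 against 73.2, 57.1 and 85.7 CPM per kb for DMSO, 4.06-fold higher. The ratio of the mRNA of these 3 inhibitors to subunit mRNA was therefore lower with CC-885, at 0.301, 0.301 and 0.321 against 0.481, 0.536 and 0.495 with DMSO. NFKB2, the largest part of the subunit sum with CC-885, averaged 140.6 CPM per kb there and 20.9 with DMSO. NFKB1 and NFKB2 counted only as subunits, although their uncut precursors also hold subunits back, and NFKBIZ was left out. The ratio is thus no measure of inhibition. TNFAIP3 and NFKBIA, both feedback genes, did not keep their ratio: TNFAIP3 had 4.13, 4.40 and 4.32 counts for each NFKBIA count with CC-885 and 0.889, 0.970 and 0.888 with DMSO. These values describe mRNA, and the IkB proteins are controlled largely by their degradation, which was not measured.

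**Figure D3:**
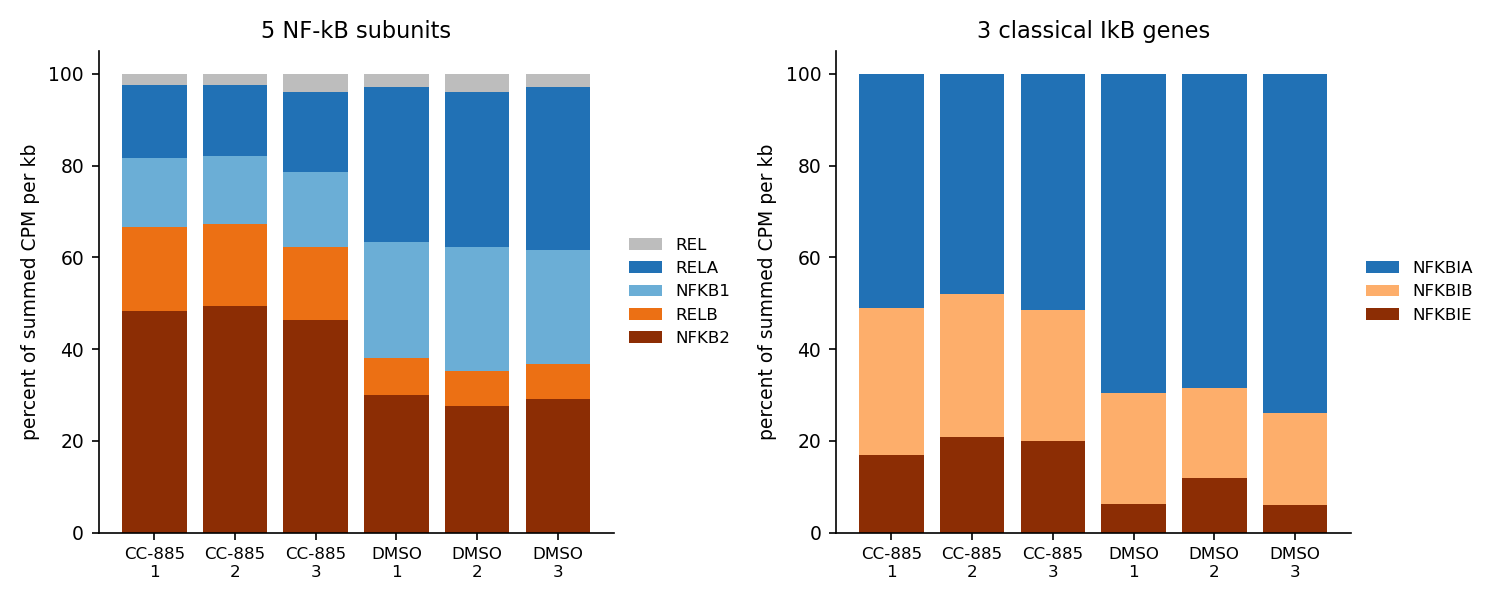
Share of each gene in the summed CPM per kb of the 5 subunits (left) and of the 3 classical IkB genes (right), 1 stacked bar per library with CC-885 left of DMSO. NFKB2 takes 46.3 to 49.3% of the subunits with CC-885 and 27.6 to 29.9% with DMSO, and NFKBIA takes 47.9 to 51.4% of the IkB genes with CC-885 and 68.4 to 73.9% with DMSO.

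The genes whose values were most like those of TNFAIP3 over the 6 libraries, by Euclidean distance of centred log2 CPM among 10802 genes, were DUSP8 (distance 0.23), GADD45A (0.28) and KLF6 (0.29). Those most like NFKBIA were KMT5A (0.08), PKP4 (0.09) and PDE12 (0.09). A distance of this kind is set mostly by the step between the groups and is given as a description.

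Other genes with IkB-like ankyrin repeats rose too, 3 of 3, beside 25.8% of all tested genes. BCL3, a nuclear cofactor of the NFKB1 and NFKB2 products, stood at 39.3, 37.4 and 34.7 CPM under CC-885, against 9.79, 8.71 and 12.7 CPM under DMSO (log2 fold change 1.84, SE 0.16, edgeR adjusted p = 7.28e-06). NFKBID, another nuclear IkB gene, averaged 27.8 ± 1.09 CPM under CC-885, against 10.4 ± 0.514 CPM under DMSO (adjusted p = 1.03e-05). NFKBIL1 averaged 93.8 ± 23.3 CPM (CC-885) and 49.5 ± 4.09 CPM (DMSO) (adjusted p = 0.000983), and its exons overlap ATP6V1G2 on the opposite strand.

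Of 28 genes for kinases and adaptors that carry the signal to NF-kB, 27 were tested, 12 rose and 2 fell, where 25.8% of all tested genes were called higher and 26.8% lower. The list's median was 0.22 on the log2 scale. MAP3K14, which encodes NIK, the kinase of the alternative branch, stood at 138.3, 148.3 and 121.7 CPM in CC-885 libraries, against 45.4, 36.2 and 48.0 CPM in DMSO libraries (log2 fold change 1.66, SE 0.15, edgeR adjusted p = 6.83e-06). The adaptors TRAF2 (336.4 ± 44.6 CPM with CC-885, 129.2 ± 8.16 CPM with DMSO) and TRAF6 (CC-885 46.0 ± 1.66 CPM, DMSO 20.9 ± 1.44 CPM) rose as well, with adjusted p of 2.05e-05 and 3.07e-05. TAB1, a partner of the kinase TAK1, fell to 12.4 ± 1.53 CPM with CC-885, against 23.3 ± 2.40 CPM with DMSO (adjusted p = 0.000514). TRADD, the adaptor of the TNF receptor, measured 16.2 ± 1.70 CPM (CC-885) and 23.4 ± 4.03 CPM (DMSO) (adjusted p = 0.0175), but missed the threshold once CC-885 replicate 3 (adjusted p = 0.0786), DMSO replicate 1 (0.0533) or DMSO replicate 2 (0.0567) was left out.
Of the 3 IKK genes, named after their values were seen, CHUK passed the test and the other two did not. CHUK, encoding IKK alpha, averaged 40.8 ± 1.83 CPM under CC-885, against 28.1 ± 4.31 CPM under DMSO (log2 fold change 0.53, adjusted p = 0.00797), with exons shared with ERLIN1 on the same strand. IKBKB, encoding IKK beta, averaged 62.7 ± 4.63 CPM (CC-885) and 60.1 ± 6.99 CPM (DMSO) (0.06, adjusted p = 0.718), and IKBKG, the regulatory subunit NEMO, averaged 34.6 ± 1.52 CPM (CC-885) and 30.7 ± 3.14 CPM (DMSO) (0.17, adjusted p = 0.286). IKBKG has a near-identical pseudogene, so its counts are uncertain. TRAF3, which targets NIK for degradation and was also named after its values were seen, averaged 50.1 ± 3.06 CPM (CC-885) and 37.4 ± 13.7 CPM (DMSO) (0.42, adjusted p = 0.203). Its value turned on the controls: the log2 fold change was 0.67 (adjusted p = 0.0458) without DMSO replicate 1 and 0.15 (adjusted p = 0.413) without DMSO replicate 3.

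Of 22 ubiquitin ligases, deubiquitinases and binding proteins of the pathway, 21 were tested, 13 rose and 1 fell, beside 25.8% higher and 26.8% lower over all tested genes. Their median was 0.64 on the log2 scale. BIRC3, a ligase that acts with TRAF2 and is itself a known NF-kB target, stood at 49.8, 51.5 and 65.8 CPM under CC-885, against 10.3, 11.7 and 8.19 CPM under DMSO (log2 fold change 2.47, SE 0.17, edgeR adjusted p = 1.69e-06). Its neighbour BIRC2, named after its values were seen, averaged 40.6 ± 10.9 CPM (CC-885) and 19.9 ± 3.28 CPM (DMSO) (adjusted p = 0.00145). CYLD, a deubiquitinase that restrains the pathway, averaged 76.1 ± 7.86 CPM under CC-885, against 26.3 ± 2.91 CPM under DMSO (adjusted p = 8.02e-06), with non-coding genes on its opposite strand. OTUD7B, a deubiquitinase of the A20 family, averaged 157.6 ± 7.84 CPM (CC-885) and 58.8 ± 8.56 CPM (DMSO) (adjusted p = 1.43e-05). BTRC, the receptor subunit of the cullin ligase that recognises marked IkB, was named after its values were seen and averaged 112.5 ± 6.68 CPM (CC-885) and 52.7 ± 2.51 CPM (DMSO) (adjusted p = 2.89e-05). TRIM21 was the gene that fell, to 20.7 ± 1.38 CPM with CC-885, against 29.3 ± 1.40 CPM with DMSO (adjusted p = 0.00677).

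Of 42 textbook target genes of NF-kB, 30 had enough counts to be tested, 21 rose and 4 fell, beside 25.8% higher and 26.8% lower over all tested genes, and their median log2 fold change was 1.88. A gene low with DMSO could enter the test through its CC-885 libraries alone. The count and the median over the tested genes are thus only a description. Of the 12 not tested, 7 had no count in any library: CXCL1, CSF2, VCAM1, SELE, BCL2A1, PTX3 and LTB. BIRC3, BCL3 and TNIP1 stand in this list and in another one. IL6, an inflammatory cytokine, was at 141.5, 168.7 and 145.3 CPM under CC-885, against 1.10, 0.953 and 1.29 CPM under DMSO. The groups lay far apart, by 7.09 on the log2 scale (SE 0.18, edgeR adjusted p = 1.81e-09), and IL6 overlaps STEAP1B on the opposite strand. TRAF1 averaged 29.5 ± 2.73 CPM under CC-885, against 1.47 ± 0.352 CPM under DMSO (adjusted p = 7.81e-08), and PTGS2, the inducible cyclooxygenase, 94.3 ± 4.39 CPM (CC-885) and 12.7 ± 0.872 CPM (DMSO) (adjusted p = 7.29e-08). TNF, a classical inducer of the pathway named after its values were seen, was at 4.80 ± 0.0554 CPM under CC-885, against 0.188 ± 0.0707 CPM under DMSO, with as few as 4 counts in a DMSO library. It entered the test through its CC-885 libraries alone, so no fold change is given.
Not every target moved this way. PLAU, encoding urokinase, fell to 2.01 ± 0.556 CPM with CC-885, against 5.70 ± 0.526 CPM with DMSO (log2 fold change -1.51, adjusted p = 0.000276). TNFAIP8 averaged 31.2 ± 6.23 CPM (CC-885) and 45.5 ± 5.51 CPM (DMSO) (adjusted p = 0.0154), and it missed the threshold when replicate 1 (adjusted p = 0.0510) or replicate 3 (0.0699) of the CC-885 group, or replicate 2 of the DMSO group (0.0513), was left out. The chemokine gene CCL2 was near 1 CPM, at 0.948 ± 0.217 CPM (CC-885) and 1.70 ± 0.0343 CPM (DMSO) (adjusted p = 0.0216), which did not hold by the DESeq2 Wald test (0.0536) or on leaving out replicate 2 (0.0862) or replicate 3 (0.0733) of the CC-885 group or replicate 1 of the DMSO group (0.0653). Other chemokine genes of the list were named after their values were seen. CXCL8 (edgeR adjusted p = 5.97e-06), CXCL2 (4.97e-06) and CXCL3 (0.000279) were called higher. CCL5 was called lower (0.0246) and CXCL10 was not called (0.0831). Such genes could enter the test through 1 group alone, so their fold changes are not given.

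Of 17 receptors that signal to NF-kB, 10 were tested, 5 rose and 1 fell, beside 25.8% higher and 26.8% lower over all tested genes, and the median was 0.45 on the log2 scale. The other 7 had too few counts, and here too a gene could enter the test through 1 group alone. CD40 stands in this list and among the targets, and TLR2 and IL18R1 had no count in any library. TNFRSF12A, the receptor of TWEAK, averaged 366.0 ± 60.6 CPM under CC-885, against 67.3 ± 8.96 CPM under DMSO (log2 fold change 2.44, edgeR adjusted p = 1.32e-06), and it overlaps CLDN6 on the opposite strand. IL1RAP, the shared chain of interleukin-1 family receptors, averaged 119.4 ± 10.8 CPM (CC-885) and 37.5 ± 4.58 CPM (DMSO) (adjusted p = 4.61e-06), and the TRAIL receptor gene TNFRSF10A 76.5 ± 6.86 CPM (CC-885) and 40.9 ± 0.420 CPM (DMSO) (adjusted p = 0.000114). TLR3 was the gene called lower, with as few as 7 counts in a CC-885 library, so that it entered the test through its DMSO libraries, at 0.484 ± 0.247 CPM under CC-885, against 2.19 ± 0.728 CPM under DMSO.

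**Figure D4:**
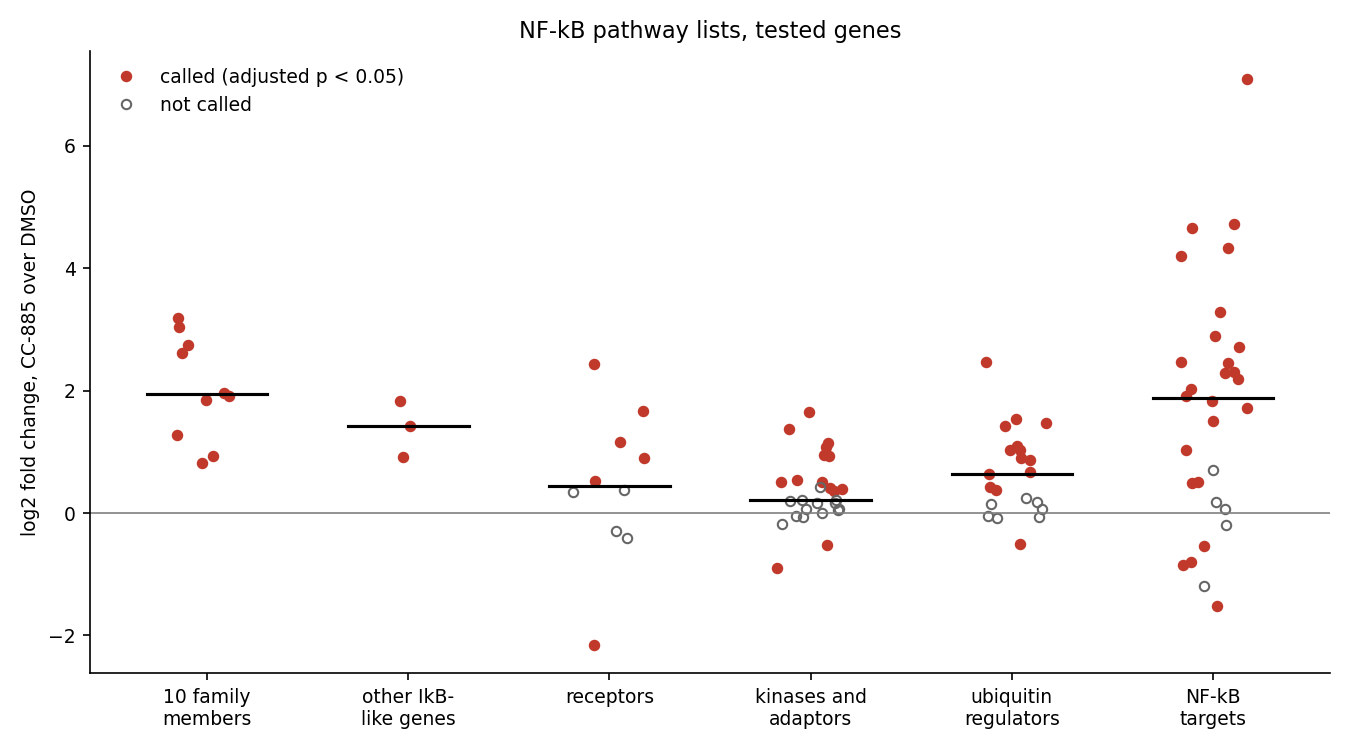
Log2 fold changes of CC-885 over DMSO for every tested gene of the family and of the other pathway lists, 1 point per gene, filled where called at an adjusted p below 0.05 and open where not, with the list median as a bar. The family's points all lie above 0 with a median of 1.94, while the kinases and adaptors have a median of 0.22. The points of the targets and receptors include genes that entered the test through 1 group alone, such as TNF.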

How the data were processed

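RNA of HCCLM3 cells was sequenced from 3 CC-885 and 3 DMSO libraries, made with an mRNA kit whose strand setting is not stated per the labels' protocols. The authors deposited raw counts, whole numbers for each gene. The sources used here name no aligner, counter or annotation. The mouse builds GRCm38 and mm10 are named per the submitters' processing notes, while all 20263 rows carry human Ensembl identifiers. Of counts from 1 to 20, 66.8% were even, so a fragment may have been counted more than once, and an alternative used halved counts.

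Symbols came from a table of gene names for 20148 rows and from GENCODE 29 for 76, and 39 had none. Genes were filtered with filterByExpr (minimum count 10) and tested in edgeR 4.0.16 (R 4.3.3) by the quasi-likelihood test with TMM scaling, robust dispersions and Benjamini-Hochberg adjustment over 13444 genes. A gene was called at an adjusted p below 0.05, and SE is the absolute log2 fold change divided by the square root of F. DESeq2 1.42.0 and limma 3.58.1 (voom) served as alternatives, beside other scalings, filters, a replicate block and the omission of each library. The replicate numbers were not used to pair the libraries in the main test, and whether they pair them is not stated. No columns of other samples were present (0). Tested on simulated counts over 13326 genes, the edgeR step recovered 13.8% of 65 genes changed 1.5-fold, 79.1% of 67 changed 2-fold and 98.4% of 64 changed 4-fold, with 8.09% of calls false. Far fewer genes were changed there than the 7069 called in the data, so these rates do not carry over to the real test. Depth is given as total counts, and 3 counts in a library correspond to 0.0754 to 0.0986 CPM.

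The 10 genes and all lists were chosen with earlier results of these data known. Text names all 10, up to 3 called genes per direction with the smallest p of each other pathway list, and the 3 genes of mean CPM of at least 5 nearest in pattern to TNFAIP3 and to NFKBIA. CHUK, IKBKB, IKBKG, TRAF3, BIRC2, BTRC, TNF, SIRT2, HNF4A, KRT8, KRT18, VWF, CDH5, DCN, PDGFRB, COL1A1, CXCL8, CXCL2, CXCL3, CCL5 and CXCL10 were named after their values were seen. Promoter windows were read from a RefSeq table and searched for the kappa B consensus on both strands.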

Additional observations from a re-analysis of the deposited data

How the results depend on the processing

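All 10 genes stayed higher with CC-885 and past the threshold in each of 14 alternatives, 140 of 140 values, with the largest adjusted p at 0.00509 (NFKBIA without CC-885 replicate 3). Log2 fold changes of NFKBIA ran between 0.70 and 0.98 and those of RELA between 0.79 and 1.10. Genes called over the whole table numbered 5804 to 7296 over the alternatives, beside 7069. Scaling by library size only moved the median log2 fold change of all genes to -0.10 and gave 3164 higher and 3956 lower calls. Deviations of same-numbered libraries correlated weakly (0.0958, 0.0311 and 0.0722), with 2 of 3 CC-885 libraries closest to their own number. With 3 libraries a group, this cannot settle whether the numbers mark pairs or a batch. The replicate block gave 3597 genes higher and 3676 lower, with 10 of the 10 family genes higher. With exon-union length in place of the longest transcript, the NFKB2 share of the subunits was 50.9% with CC-885 and 32.7% with DMSO, beside 48.0% and 28.9%, and RELA fell below NFKBIA and NFKB1 in the CC-885 order. The RELA share was then 13.2% (CC-885) and 29.7% (DMSO). Of the 3 classical IkB genes NFKBIA took 40.6% (CC-885) and 62.2% (DMSO), and NFKBIE 23.6% (CC-885) and 10.8% (DMSO). The SD given with a share is over libraries and does not cover the choice of length. The log2 fold change of IKBKB was -0.021 (edgeR adjusted p = 0.872) without DMSO replicate 2 and at most 0.13 (without DMSO replicate 1), beside 0.06 with all libraries; the cause was not tested. Of 486 values of 35 other named genes, 470 kept direction and call. VWF, CDH5, DCN, CXCL8, CXCL2, CXCL3, CCL5, CXCL10 and the genes nearest in pattern to TNFAIP3 and NFKBIA were not among the 35.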
